A study of Mus musculus with 4 samples.

Results

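The Ikaros and Runx transcription factor families were described by RNA sequencing in type 1 innate lymphoid cells (ILC1s) of the mouse. The 8 genes are defined by name, and their rule uses no measured value: Ikzf1, Ikzf2, Ikzf3 and Ikzf5 of the Ikaros family, the 3 Runx genes, and Cbfb. Each matched 1 gene identifier among the 40481 distinct genes of the count table, and all 8 passed the filter on low counts. The 8 genes and the gene lists used below were chosen with earlier results of these data known. Shares over all genes beside them are therefore descriptive and do not test the lists. ILC1s reside in tissues, are related to natural killer (NK) cells, and were selected here by the integrin CD49a. The control libraries came from mice of the genotype Inpp4b flox/flox (n = 2, numbered 1 and 2). The knockout-labelled libraries came from mice of the genotype Ncr1-iCre Inpp4b flox/flox (n = 2, numbered 3 and 4). Both groups therefore carry the floxed Inpp4b alleles, and the second adds a Cre recombinase transgene named after Ncr1, the NKp46 receptor gene of NK cells, ILC1s and some other innate lymphoid cells. The effect of Cre itself and that of the deletion cannot be told apart. The age, sex and strain of the mice are not given in the labels, and the tissue, liver, is labelled for control library 1 only.

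Ikaros proteins bind DNA through zinc fingers near one end, pair with each other through zinc fingers at the other end, and recruit chromatin remodelling and deacetylase complexes. Ikaros (Ikzf1) is required for the development of lymphocytes, Helios (Ikzf2) is best known from regulatory T cells, Aiolos (Ikzf3) from the maturation of B and NK cells, and Pegasus (Ikzf5) is a more distant relative. Runx proteins bind DNA through the Runt domain and act as dimers with CBFβ (Cbfb), which does not bind DNA itself but stabilises the complex. Runx3 is the member best known from cytotoxic T cells and innate lymphoid cells, Runx1 from the origin of blood stem cells, and Runx2 from bone formation.

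The Runx genes share a word in their own promoter regions, shown here because it holds 2 copies of AACCACA, a sequence that Runx proteins are known to recognise. Of the 8 genes, 6 had entries in the RefSeq promoter table (GRCm38.p6, 250 bases before to 50 after each start), with 9 windows between them. Ikzf2 and Ikzf3 had none. The longest word found in a window of each Runx gene was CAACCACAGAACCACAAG, in capitals below with the bases on either side (5′ to 3′):
Runx1: ataaaCAACCACAGAACCACAAGttggg
Runx2: acaaaCAACCACAGAACCACAAGtgcgg
Runx3: tccctCAACCACAGAACCACAAGgccag
The Runx1 piece lies at chr16:92826026-92826053 on the minus strand, and the word begins at base 27 of the transcript. The Runx2 piece lies at chr17:44814584-44814611 on the minus strand, and the word begins at base 22 of the transcript. The Runx3 piece lies at chr4:135120504-135120531 on the plus strand, and the word begins 136 bases before the start. On either strand, this word of 18 bases stood in 4 of 32851 windows of 300 bases (0.0122%). The Runx windows are among the 4 by the choice of the word, so this share does not test a link to Runx genes. The other was that of Gm16225, whose window overlaps that of Runx3 on the opposite strand. The single word AACCACA, which the longer word contains, stood in 5.27% of all windows. Neither word stood in the windows of Ikzf1, Ikzf5 or Cbfb, nor in the second windows of Runx1 and Runx3. The counts sum every transcript of a gene, so they do not show which of its starts was used.

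Totals ranged from 42380840 to 54878210 counts per library, and the 8 genes were covered by 217 to 21289 counts each. The targeted gene Inpp4b was at 78.7 and 106.5 CPM (counts relative to the library total, scaled by TMM factors) in controls and at 142.5 and 86.0 CPM in the knockout-labelled libraries. The groups overlapped, and the log2 difference of 0.30 became -0.13 without knockout library 3, so the label was not checked by a lower transcript. The counts sum the whole gene and do not test the deletion of some of its exons. The 10 ILC1 markers summed to 5903 and 6100 CPM in controls and to 5936 and 6222 CPM in the knockout-labelled libraries, and none of them was at 0. The sum joins markers that moved in opposite directions. Of the 10, 2 were higher in both knockout-labelled libraries and 4, Ncr1 among them, were lower in both, beside 19.5% and 20.8% of all genes. Markers of myeloid cells and T cells had higher summed levels in the knockout-labelled libraries. The summed level of 17 myeloid markers was 1824 and 1937 against 3913 and 4688 CPM. By edgeR, 7 of 16 tested members were higher, beside 0.141% of all genes. Tyrobp alone gave 1247 and 1233 against 1368 and 1548 CPM of it. Lyz2 was at 43.1 and 71.5 against 626 and 583 CPM. Of the 16, 13 were higher in both knockout-labelled libraries and 1 was lower in both, beside 19.5% and 20.8% of all genes. The summed level of 14 T cell markers was 2478 and 2442 against 2961 and 4023 CPM. By edgeR, 1 of 12 tested members was higher, beside 0.141% of all genes. Cd3g gave 1469 and 1255 against 1623 and 1931 CPM of it. Trac was at 7.31 and 5.67 against 85.1 and 201 CPM. Of the 12, 8 were higher in both knockout-labelled libraries and 1 was lower in both, beside 19.5% and 20.8% of all genes. The lower one was Trbc1 (443 and 616 against 390 and 425 CPM). Ikaros and Runx genes are also transcribed in T cells and myeloid cells, and the part of these cells in the values below was not tested. In such bulk libraries, fewer cells of a type and less RNA per cell cannot be told apart.

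None of the 8 genes passed the test between genotypes. By edgeR, 0 of 8 had an adjusted p under 0.05, beside 0.155% of the 14863 genes tested (0.141% higher and 0.0135% lower), and 0 of 8 had an unadjusted p under 0.05, beside 9.65% of all genes (4.48% higher and 5.17% lower). DESeq2 also called 0 of 8, beside 2.9% of the genes for which it gave an adjusted p (1.61% higher and 1.29% lower). The log2 fold changes (knockout-labelled over control) were positive for 4 genes and negative for 4, with a median of -0.0096 beside -0.0142 over all genes tested. The groups did not overlap for 3 of the 8 genes, beside 40.2% of all genes. These were Runx1 and Runx2, higher in both knockout-labelled libraries as were 19.5% of all genes, and Cbfb, lower in both as were 20.8%.

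**Figure D1:**
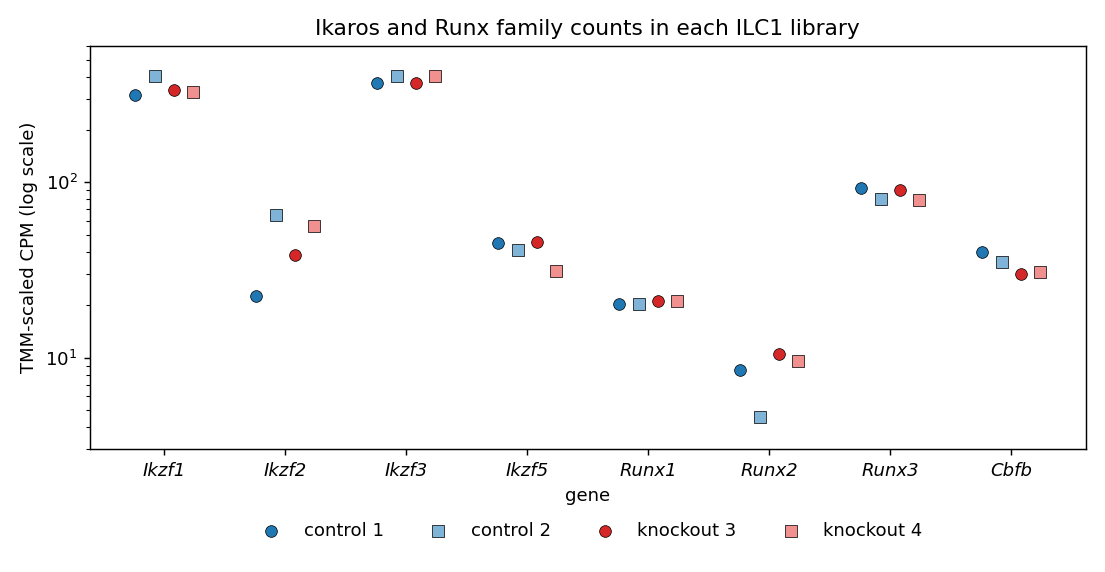
Each point is 1 library, with the gene on the horizontal axis and TMM-scaled CPM on a logarithmic vertical axis. Ikzf2 ranges from 22.5 to 65.4 CPM with both extremes among the controls, while Runx1 lies between 20.1 and 21.2 CPM in the 4 libraries.

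Ikzf1 and Ikzf3 carried most of the counts. Ikzf1 (ENSMUSG00000018654, mm10 chr11:11685003-11772926) was at 314 and 403 CPM in the control pair and at 335 and 328 CPM in the knockout-labelled pair. The lowest and the highest value were both controls, and the knockout-labelled pair lay between them. Group averages were 359 ± 62.8 and 332 ± 5.06 CPM (± SD over the 2 libraries), and the log2 fold change was -0.11 (standard error 0.16, edgeR adjusted p = 0.927).

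Ikzf3 (ENSMUSG00000018168, chr11:98464902-98546031) was at 367 and 404 CPM in the control pair and at 370 and 404 CPM in the knockout-labelled pair. Each group thus held a lower and a higher library at nearly the same levels. The means were 385 ± 25.9 and 387 ± 24.2 CPM (± SD over the 2 libraries), with a log2 fold change of 0.01 (standard error 0.14, edgeR adjusted p = 0.997). The 95% interval ran from -0.33 to 0.34, so changes beyond 1.25-fold down or 1.26-fold up lay outside it, the tightest bound among the 8 genes.

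Ikzf2 varied more between libraries of one genotype than between genotypes. It lies at chr1:69531214-69687245 (ENSMUSG00000025997) and reached 22.5 and 65.4 CPM in the control pair and 38.4 and 56.3 CPM in the knockout-labelled pair. Control library 2 stood 2.90-fold above control library 1, and both knockout-labelled libraries lay between the controls. The means were 43.9 ± 30.3 and 47.3 ± 12.7 CPM (± SD over the 2 libraries), and the log2 fold change was 0.11 (standard error 0.49, edgeR adjusted p = 0.99). Its 95% interval, from -1.07 to 1.29, leaves room for a change of 2.10-fold down or 2.44-fold up. Which control was kept set the sign: the log2 fold change was -0.47 without control library 1 and 1.08 without control library 2 (edgeR adjusted p = 0.821 and 0.788).

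The difference between the controls was large among expressed genes. Among 7700 genes of at least 10 CPM, 0.701% differed more between the 2 control libraries than Ikzf2 did (1.54 on the log2 scale, beside a median of 0.24). Between the knockout-labelled libraries, 17.8% of the genes differed more than Ikzf2. Foxp3, which defines regulatory T cells, the cells in which Helios is best known, had 0 counts in all 4 libraries, which allows up to 3 counts in each. Lrrc32, also known from regulatory T cells, had 0 counts as well. Of the 6 regulatory T cell markers, 4 were tested and edgeR called 0 between genotypes, a test that does not compare the controls with each other. In control libraries 1 and 2, Il2ra was at 32.9 and 42.7 CPM and Ctla4 at 0.431 and 0.953 CPM. Tnfrsf4 was at 1.66 and 0.974 CPM and Ikzf4 at 1.03 and 1.06 CPM. The summed level of the 7 platelet and megakaryocyte markers was 30.5 CPM in control library 1 and 64.4 CPM in control library 2. Itgb3, an integrin gene not limited to platelets, gave 17.7 and 58.2 CPM of it, while the other 6 were lower in control library 2, such as the platelet chemokine gene Pf4 at 4.38 and 2.65 CPM. The 10 hepatocyte markers summed to 173 and 115 CPM. Their part in the difference in Ikzf2 was not tested.

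**Figure D2:**
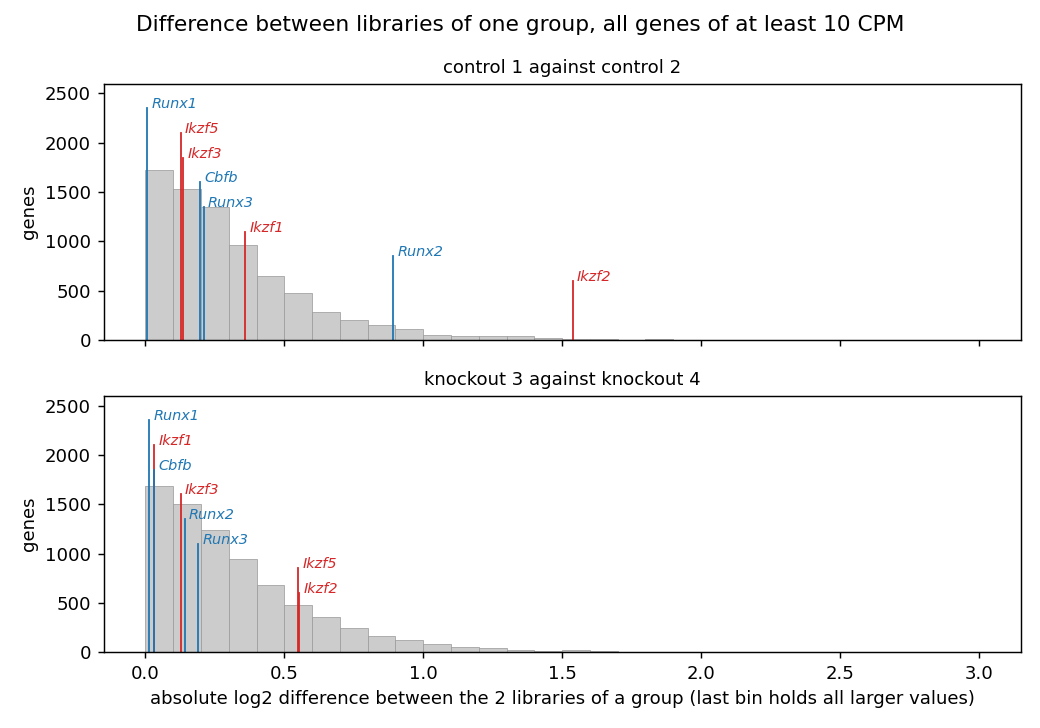
Grey bars count genes of at least 10 CPM by the absolute log2 difference between the 2 libraries of a group, controls above and knockout-labelled libraries below, and vertical lines mark the family genes (Ikaros red, Runx and Cbfb blue; line height only spaces the names). Ikzf2 at 1.54 and Runx2 at 0.89 stand in the tail of the control panel, and neither does so to that extent in the other. Runx2 itself averages under 10 CPM over all libraries, so it is set against genes of higher level.

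The genes whose pattern over the 4 libraries was closest to that of Ikzf2, measured as the root mean square distance in gene-centred log2 CPM over 7699 other genes, were Tdrkh (0.10), Tmed9 (0.16), Haspin (0.19), Kcmf1 (0.20) and Plcg1 (0.20). Tmed9, which encodes a cargo receptor of the secretory pathway, was at 183 and 523 CPM in the control pair and at 396 and 544 CPM in the knockout-labelled pair. Plcg1, which encodes phospholipase C gamma, was at 12.0 and 24.4 against 16.6 and 29.0 CPM. A likeness over 4 libraries is a description only, since they share depth and preparation.

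Ikzf5 (ENSMUSG00000040167, chr7:131388652-131410521) was at 45.1 and 41.3 CPM in the control pair and at 45.6 and 31.1 CPM in the knockout-labelled pair. Knockout library 4 alone lay below the rest. The log2 fold change was -0.17 (standard error 0.25, edgeR adjusted p = 0.927), and it was 0.048 without that library. The value of Ikzf5 is uncertain for a further reason. Of its 5721 annotated exon bases, 4652 overlap exons of Pstk on the opposite strand, and the strand setting of the counting is not given in the sources used here. Pstk itself had 500 to 852 counts per library against 1611 to 2616 for Ikzf5. No other member shared more than 519 exon bases with another gene.

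The Ikaros family gene outside the 8, Ikzf4 (Eos), was close to the limit of detection. It had 60 and 50 counts in controls and 50 and 6 counts in the knockout-labelled libraries. Only knockout library 4 was low, and the log2 fold change of -0.71 had an interval of -3.62 to 2.20 (edgeR adjusted p = 0.944).

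Of the Runx genes, Runx3 had by far the most counts. Runx3 (ENSMUSG00000070691, chr4:135120652-135177990) was at 92.9 and 80.3 CPM in the control pair and at 90.7 and 79.5 CPM in the knockout-labelled pair, so the groups overlapped over nearly their whole range. The means were 86.6 ± 8.88 and 85.1 ± 7.91 CPM (± SD over the 2 libraries), and the log2 fold change was -0.02 (standard error 0.17, edgeR adjusted p = 0.995). The 95% interval, from -0.44 to 0.39, excluded changes beyond 1.35-fold down and 1.31-fold up.

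Runx1 (ENSMUSG00000022952, chr16:92601466-92826149) was the steadiest of the 8 genes. It was at 20.1 and 20.2 CPM in the control pair and at 21.2 and 20.9 CPM in the knockout-labelled pair. Both knockout-labelled libraries were higher, by less than 1 CPM on average, and the log2 fold change was 0.06 (standard error 0.25, edgeR adjusted p = 0.986). Most of the 7700 genes differed more between libraries of a group than Runx1 did, 98.3% between the controls and 96.9% between the knockout-labelled libraries.

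Runx2 (ENSMUSG00000039153, chr17:44495987-44814797) was at 8.52 and 4.59 CPM in the control pair and at 10.5 and 9.51 CPM in the knockout-labelled pair. Control library 2, with 217 counts, was low, and the other three lay within 2 CPM of each other. The log2 fold change of 0.61 was the largest in size among the 8 genes but did not pass the test (SE 0.42, interval -0.40 to 1.62, edgeR adjusted p = 0.739). It was 1.12 without control library 1 and 0.23 without control library 2. Control library 2 was thus the highest of the 4 for Ikzf2 and the lowest for Runx2.

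Cbfb (ENSMUSG00000031885, chr8:105170674-105217989), which encodes the shared partner of the Runx proteins, was at 40.0 and 34.9 CPM in the control pair and at 30.0 and 30.7 CPM in the knockout-labelled pair. Both knockout-labelled libraries lay below both controls. The means were 37.4 ± 3.63 and 30.4 ± 0.477 CPM (± SD over the 2 libraries). The log2 fold change was -0.30 (SE 0.22, interval -0.82 to 0.22) and did not pass the test (edgeR adjusted p = 0.749). It lay between -0.40 and -0.20 when any 1 library was left out. Since the groups did not overlap, its sign could hardly change and is no further support.

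**Figure D3:**
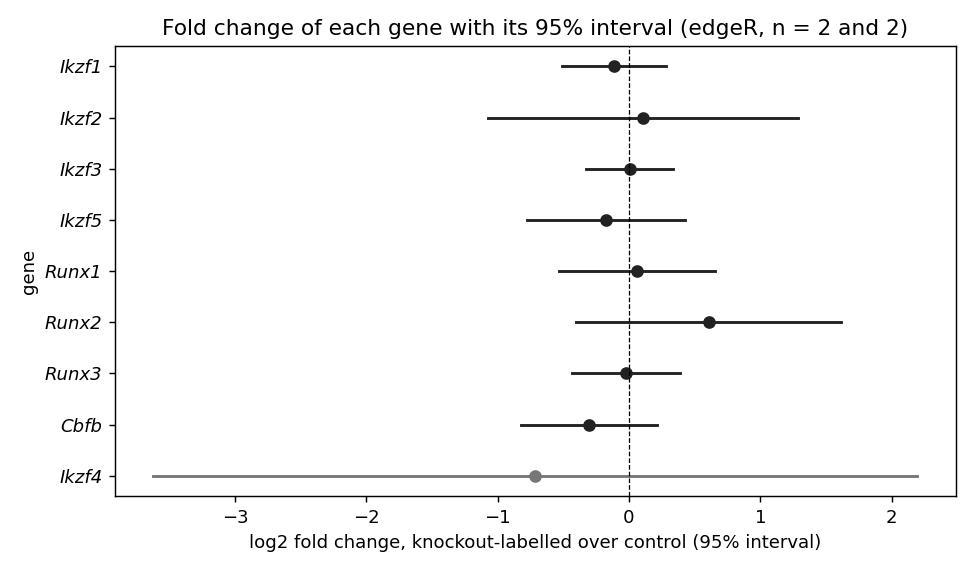
Points give the log2 fold change of knockout-labelled over control libraries (n = 2 each) and lines its 95% interval from the edgeR fit, for the 8 genes and Ikzf4 (grey). Every interval spans 0, and those of Ikzf2, Runx2 and Ikzf4 are the widest.

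Seen together, the intervals bounded the 8 genes unequally. Those of Ikzf1, Ikzf3 and Runx3 lay within 1.5-fold in either direction. Those of 6 genes lay within 2-fold, and only Ikzf2 and Runx2 could not be bounded so.

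Per length, the 2 Ikaros genes of highest count were also the most abundant transcripts. Levels between genes were compared as counts per annotated exon length, scaled to the same total in each library. Ikzf1 averaged 145 ± 19.2 and Ikzf3 107 ± 5.61 over the 4 libraries (SD), and 6.96% and 9.30% of all tested genes had a higher level per length. Runx3 followed at 41.6 ± 5.04 and Cbfb at 23.7 ± 4.44. Ikzf5 averaged 17.3 ± 3.52, Ikzf2 9.42 ± 3.85, Runx1 4.14 ± 0.154 and Runx2 2.25 ± 0.672. Over exon length each gene lay above the next in all 4 libraries. The ranges over libraries overlapped for Cbfb and Ikzf5, and for Ikzf5 and Ikzf2, and were separate for the other neighbours.

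The choice of length changed the first place. Over coding length alone, Ikzf3 averaged 218 and Ikzf1 184, while the means of the other 6 genes kept their order. In single libraries Ikzf2 lay above Ikzf5 over coding length in control library 2 (35.6 against 26.9) and knockout library 4 (28.0 against 18.5). The ratio of Ikzf3 to Ikzf1 was 0.771 and 0.661 in controls and 0.728 and 0.813 in the knockout-labelled libraries over exon length, but 1.24 and 1.06 against 1.17 and 1.31 over coding length. Which of the 2 was the more abundant transcript therefore cannot be told from these counts.

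**Figure D4:**
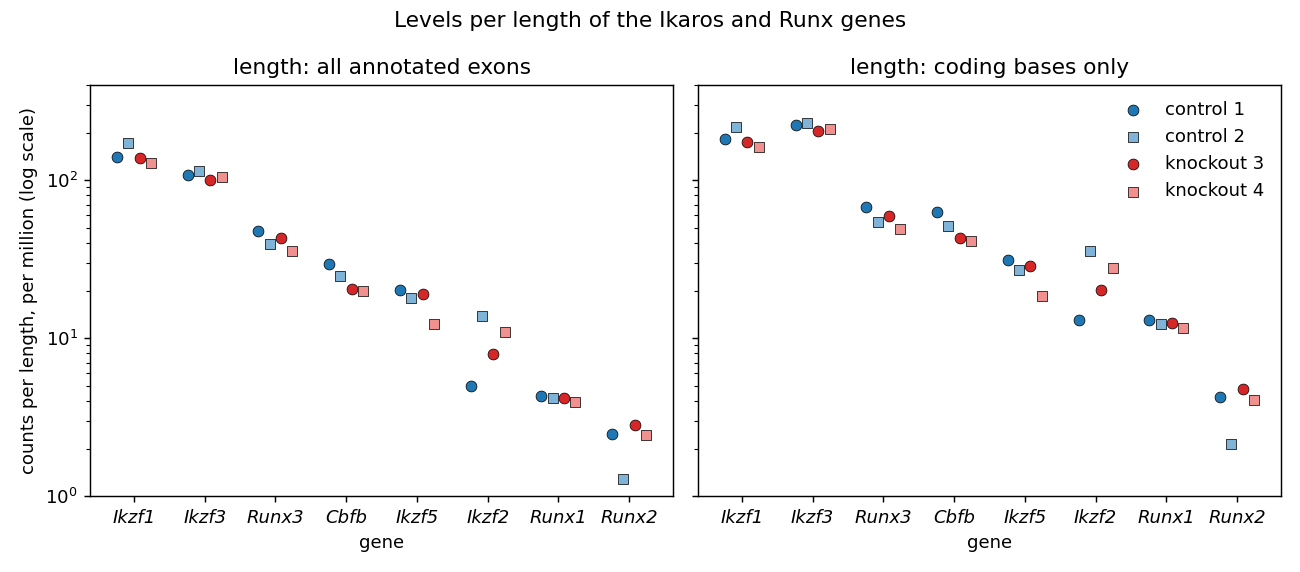
Points give counts per length, scaled to the same total per library, on a logarithmic axis for each of the 4 libraries, with all annotated exons as the length on the left and coding bases on the right. Ikzf1 and Ikzf3 exchange first place between the panels, and Runx2 is lowest in both.

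The make-up of each family was then taken per library. Ikzf1 made up 51.2% and 54.2% of the per-length total of the 4 Ikaros members in controls and 52.0% and 50.1% in the knockout-labelled libraries. Ikzf2 made up 1.83% and 4.37% against 2.96% and 4.28%, so that the control libraries held both the lowest and the highest share. Runx3 made up 87.6% and 87.9% of the Runx total in controls and 86.0% and 84.9% in the knockout-labelled libraries. The share was slightly lower in both knockout-labelled libraries. Over coding length the same shares were 79.5% and 79.0% against 77.6% and 75.8%.

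Cbfb was lower relative to its partners in the knockout-labelled libraries. The ratio of Cbfb to the summed Runx genes, per exon length, was 0.542 and 0.549 in controls and 0.409 and 0.471 in the knockout-labelled libraries. Over coding length it was 0.744 and 0.745 against 0.557 and 0.635. The groups did not overlap under either length. An exact two-sided permutation test gave p = 0.333 for the Cbfb ratio and for the Runx3 share under both lengths, the smallest that 2 libraries against 2 allow, so this test could not pass the threshold.

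Of the genes that work with the Ikaros proteins, none was called by edgeR. The list of 18 complex partners and corepressors, made up of the NuRD remodelling complex and the Sin3, CtBP and Brg1 proteins, had a median log2 fold change of -0.21. At an unadjusted p under 0.05 in edgeR, 1 was higher and 1 lower, beside 4.48% and 5.17% of all genes, and DESeq2 called 0. Mbd3, a NuRD subunit, was at 16.6 and 16.1 CPM in the control pair and at 6.79 and 10.4 CPM in the knockout-labelled pair (-0.93 with SE 0.34 on the log2 scale, edgeR adjusted p = 0.461). The deacetylase gene Hdac1 was at 168 and 183 against 217 and 226 CPM (0.34 with SE 0.14 on the log2 scale, edgeR adjusted p = 0.505). Both had groups that did not overlap.

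The cereblon ubiquitin ligase degrades Ikaros and Aiolos when bound by thalidomide-type drugs. Of its 5 genes edgeR and DESeq2 called 0, and 0 had an unadjusted p under 0.05 in edgeR. Crbn, the substrate receptor, was at 108 and 120 CPM in the control pair and at 139 and 140 CPM in the knockout-labelled pair (0.29 with SE 0.15 on the log2 scale, edgeR adjusted p = 0.605). The median of the 5 genes was 0.02.

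Of 20 tested Runx corepressors and cofactors edgeR called 0. At an unadjusted p under 0.05 in edgeR, 1 was higher and 3 lower, beside 4.48% and 5.17% of all genes. Their median log2 fold change was -0.23, and 10 of the 20 lay lower in both knockout-labelled libraries, beside 20.8% of all genes. DESeq2 called 2 of them lower, beside 1.29% of the genes for which it gave an adjusted p. The first was Crebbp, an acetyltransferase gene, at 459 and 533 CPM in the control pair and 323 and 313 CPM in the knockout-labelled pair (-0.64 with SE 0.14 on the log2 scale, edgeR adjusted p = 0.277, DESeq2 adjusted p = 0.014). The second was Pim1, a kinase gene, at 318 and 706 CPM in the control pair but 230 and 203 CPM in the other (edgeR adjusted p = 0.362, DESeq2 adjusted p = 0.00622). The 1 gene of the list higher at an unadjusted p, Tle1, a corepressor of the Groucho family, did not exceed 2.24 CPM in any library.

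**Figure D5:**
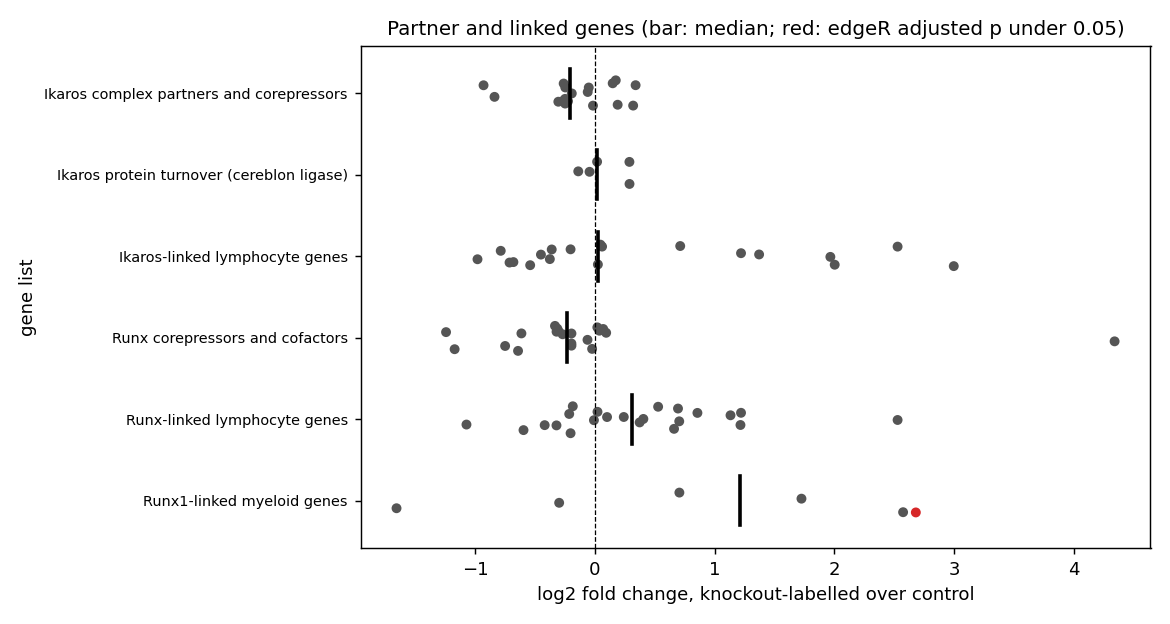
Each point is a tested gene of a list of partners or linked genes, placed by its log2 fold change, the bar is the list's median and red marks an edgeR adjusted p under 0.05. Csf1r, at 2.68 in the myeloid list, is the only red point.

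Genes linked to Runx proteins in lymphocytes, chiefly effector, receptor and lineage genes, had a median log2 fold change of 0.31 over 22 genes. edgeR called 0 of them. At an unadjusted p under 0.05 in edgeR, 6 were higher and 1 lower, beside 4.48% and 5.17% of all genes. DESeq2 called 3 higher and 1 lower, beside 1.61% and 1.29% of the genes for which it gave an adjusted p. The 1 lower was Ncr1, the gene that names the Cre transgene (-0.59 on the log2 scale, DESeq2 adjusted p = 0.0149). The granzyme gene Gzmb was at 3387 and 3518 CPM in the control pair and 5120 and 5797 CPM in the knockout-labelled pair (0.66, SE 0.14, edgeR adjusted p = 0.251). Ifng, of the cytokine interferon-gamma, was at 97.8 and 75.8 CPM and then 143 and 171 CPM in the same order (0.86 with SE 0.19 on the log2 scale, edgeR adjusted p = 0.277). Cd8a, which Runx3 keeps active in cytotoxic T cells, was at 15.2 and 19.7 against 59.8 and 141 CPM (2.53 with SE 0.42 on the log2 scale, edgeR adjusted p = 0.172). Without knockout library 3 Cd8a passed (edgeR adjusted p = 0.0215), and without knockout library 4 it did not (1.75 on the log2 scale, adjusted p = 0.313), nor without either control (adjusted p = 0.309 and 0.370). It is also a T cell marker, and Cd3e was at 26.5 and 15.1 against 152 and 371 CPM in the same libraries. Cd8b1, a T cell marker too, was at 0.0345 and 1.61 against 0.116 and 0.657 CPM. Of the 12 tested T cell markers, 8 were higher in both knockout-labelled libraries and 1 was lower in both, beside 19.5% and 20.8% of all genes. The DESeq2 adjusted p was 0.00407 for Gzmb, 0.00776 for Ifng and 5.24e-09 for Cd8a. Runx3 itself averaged 85.1 CPM in the knockout-labelled libraries and 86.6 CPM in controls, and the part of Runx proteins in the values of this list was not tested.

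Genes linked to Runx1 in myeloid cells had a median of 1.22 over the 6 of 10 that were tested, too few to describe the list by, since the rest were filtered out as low. Csf1r, which encodes a growth factor receptor of macrophages, rose from 8.95 and 14.9 to 77.7 and 74.9 CPM (2.68 with SE 0.29 on the log2 scale, edgeR adjusted p = 0.0489). The call was lost when any 1 library was left out (edgeR adjusted p = 0.0634 to 0.179). Gfi1, a repressor gene of granulocytes and lymphocytes, was at 9.59 and 10.2 against 2.84 and 3.42 CPM (-1.66 with SE 0.38 on the log2 scale, edgeR adjusted p = 0.286, DESeq2 adjusted p = 0.014). Csf1r is itself one of the myeloid markers whose summed level is given above, and the part of myeloid cells was not tested. Runx1 differed by 0.06 on the log2 scale between the same groups, and its part in the values of this list was not tested.

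Genes linked to Ikaros proteins in lymphocytes had a median log2 fold change of 0.02 over 19 tested. edgeR called 0. At an unadjusted p under 0.05 in edgeR, 4 were higher and 4 lower, beside 4.48% and 5.17% of all genes. DESeq2 called 3 higher and 2 lower, beside 1.61% and 1.29% of the genes for which it gave an adjusted p. Cd8a, among those called higher, is also among the Runx-linked genes above. Myc was at 154 and 193 CPM in the control pair and 86.2 and 89.8 CPM in the knockout-labelled pair (-0.98, SE 0.17, edgeR adjusted p = 0.182). The cell cycle inhibitor gene Cdkn1a was at 2.36 and 2.46 against 12.3 and 6.51 CPM (1.97 with SE 0.47 on the log2 scale, edgeR adjusted p = 0.299). DESeq2 called both, with an adjusted p of 0.000227 for Myc and 0.0112 for Cdkn1a. Another cell cycle inhibitor gene of the list, Cdkn1b, went the other way from Cdkn1a (-0.78 on the log2 scale, DESeq2 adjusted p = 0.0373). Irf4 was called higher (3.01 on the log2 scale, DESeq2 adjusted p = 0.0292). Myc was lower and Cdkn1a higher in both knockout-labelled libraries. Ikzf1 and Ikzf3 overlapped between the groups, and the part of Ikaros proteins in the values of this list was not tested.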

How the data were processed

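The values are raw read counts that the authors deposited as 1 table for 4 libraries. Per the labels' protocols, a low-input SMARTer kit and a NovaSeq instrument were used. The submitters' processing notes name mm10, STAR, featureCounts from Subread, DESeq2 and bcl2fastq. The annotation and the strand setting are not given in the sources used here. Of 40757 lines, 276 repeated an identifier with the same counts and were dropped. Replicates differed far beyond sampling noise (chi-square per degree of freedom 98.5 in controls and 89.6 in the knockout-labelled libraries). Nothing in the labels says that libraries came from separate mice, so p-values measure only how these samples vary, possibly for technical reasons.

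Counts were filtered with filterByExpr, scaled by TMM and tested with edgeR 4.0.16 (quasi-likelihood, robust, two-sided, genotype as the only term) in R 4.3.3, with Benjamini-Hochberg adjustment over 14863 genes and a threshold of 0.05. The script was tested on simulated data. DESeq2 1.42.0 and limma 3.58.1 (voom) were alternatives, beside other scalings and filters, removal of marker genes of other cell types, leaving out each library and a replicate block. Lengths and positions came from GENCODE M21 (GRCm38, the mm10 assembly). The members and the lists were chosen with earlier results of these data known. The lists were 7 sets of partner or linked genes (Ikzf4 alone being 1) and 9 of cell type markers: those of myeloid cells, T cells, regulatory T cells, B and plasma cells, conventional NK cells, ILC1s, ILC2s and ILC3s, hepatocytes, and platelets. Named genes were the 8 members, Inpp4b, Ncr1, Ikzf4, up to 3 genes of smallest p and any called in each partner or linked list, defining markers, and the 5 genes closest to the member of widest range. Pstk, Lrrc32, Cdkn1b, Irf4 and some of the cell type markers were named after their values were seen. One marker gene is not reported here.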

Additional observations from a re-analysis of the deposited data

How the results depend on the processing

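The titles number the libraries 1 to 4, whereas the table's column names number them 1 and 2 in each group. No label says that these numbers mark a shared mouse, litter or day. The differences between the libraries of a group correlated across 14863 genes at 0.12 between the groups (0.25 over 7700 genes of at least 10 CPM), over 2 pairs. An edgeR fit with these numbers as a replicate block, added after seeing the data, called 0 genes higher and 0 lower, with 857 and 852 at an unadjusted p under 0.05. It called 0 in each list, Csf1r included (adjusted p = 0.151), and gave Runx2 the lowest adjusted p among the 8 family genes, 0.557. None of these was called under any of the 14 alternatives to the edgeR fit, and 101 of 112 log2 fold changes kept their sign. With all libraries, 3 did not, all of Ikzf3, which was -0.037 with library totals only, -0.013 without a filter and -0.023 with at least 50 counts in 2 libraries. Leaving out each library in turn, where the lone library left is assumed to vary like the other group, gave -0.28 to 0.081 for Ikzf1, -0.47 to 1.08 for Ikzf2, -0.086 to 0.079 for Ikzf3, -0.50 to 0.048 for Ikzf5, -0.15 to 0.083 for Runx3, 0.034 to 0.069 for Runx1, 0.23 to 1.12 for Runx2 and -0.40 to -0.20 for Cbfb. The same gave -3.17 to 0.12 for Ikzf4, -0.13 to 0.60 for Inpp4b and -0.50 to 0.35 for Cul4a.

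Over all genes, edgeR called 21 higher and 2 lower. There were 299 and 264 without a filter, 40 and 9 with at least 50 counts in 2 libraries, 235 and 188 with DESeq2, 0 and 0 with marker genes of other cell types removed, and 6 lower with library totals only. Leaving out 1 library gave 0 to 18 higher and 0 to 2 lower. Calls among Ikaros-linked genes went from 0 to 4 without a filter, 5 with DESeq2 and 0 to 1 with a library left out. Those among Runx corepressors went from 0 to 2 and 2, and those among Runx-linked lymphocyte genes from 0 to 4 and 4, with 0 to 1 when a library was left out. Calls among Runx1-linked myeloid genes went from 1 to 3 without a filter, 2 with DESeq2, 0 with markers removed (Csf1r is one of them) and 0 with any library left out. The cause of the other changes was not tested.

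Over coding length the levels were 184 for Ikzf1, 24.2 for Ikzf2, 218 for Ikzf3, 26.4 for Ikzf5, 12.4 for Runx1, 3.81 for Runx2, 57.5 for Runx3 and 49.5 for Cbfb, since the coding part is shorter than the exons. With 2 libraries a group, changes above 2-fold lay within the intervals of Ikzf2 and Runx2, and shares and ratios could not pass an exact permutation test.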

Other observations

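The values below concern the remaining marker lists and the gene that names the Cre transgene, Ncr1. That gene is also counted above, among the ILC1 markers and the Runx-linked lymphocyte genes. Ncr1, which has a known Runx3 link in NK cells, was at 1672 and 1772 CPM in controls and at 1202 and 1077 CPM in the knockout-labelled libraries. Both knockout-labelled libraries were lower, with a log2 difference of -0.60 (SE 0.14, edgeR adjusted p = 0.28, DESeq2 adjusted p = 0.0149). B cells transcribe Ikzf3 strongly, and Pax5, which defines them, had 5, 1, 0 and 0 counts in libraries 1 to 4. The 10 B and plasma cell markers summed to 719 and 1049 CPM in controls and to 662 and 813 CPM in the knockout-labelled libraries, of which Ighm alone gave 703, 1032, 633 and 792 CPM. edgeR and DESeq2 called 0 of the 7 tested, with 0 at an unadjusted p under 0.05. Among these 7, only Cd22 was higher in both knockout-labelled libraries, and 0 were lower in both. From library 1 to library 4, Cd22 measured 0.172, 3.03, 9.38 and 7.83 CPM, a log2 difference of 2.43 with SE 1.11. Cd79b stayed between 10.7 and 12.8 CPM in all 4 libraries. The part of B cells in the level of Ikzf3 was not tested. The 11 conventional NK cell markers summed to 253 and 205 against 479 and 756 CPM. Klra7 alone gave 27.8 and 37.5 against 251 and 521 CPM of it. edgeR called 1 of the 10 tested higher, Klra7, beside 0.141% of all genes. Of the 10, 6 were higher in both knockout-labelled libraries and 1 was lower in both, beside 19.5% and 20.8% of all genes. The 8 markers of ILC2s and ILC3s, cells that also use Runx and Ikaros factors, summed to 386 and 449 against 361 and 381 CPM, nearly all of it Gata3, and Il17a, Il22 and Il23r had 0 counts in all 4 libraries.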
